A study of Mus musculus with 7 samples.

Results

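The enzymes that build, sulfate and trim glycosaminoglycan chains were followed in cells sorted from mouse B16 tumours, a transplantable melanoma line. The list holds 39 genes chosen by symbol, and all 39 were found among the 56953 genes of the count files. The list was proposed with the AAV-iIL12 against AAV-iLuc values known, so the differences of its members between those groups are given as a description, with no p-value. After the filter on low counts, 32 of the 39 were among the 13990 genes tested, and 7 were counted too rarely to test.

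The study compared 2 groups of mice bearing B16 tumours. All received radiotherapy (RT) at 8 Gy together with an adeno-associated virus (AAV), a vector for gene delivery. The vector was AAV-iIL12 in 3 mice and AAV-iLuc, the control vector, in 4 mice. The sample titles of the AAV-iIL12 group also carry WT and those of the AAV-iLuc group do not, and what it refers to is not given in the sources used here. At day 5 after treatment, live cells without CD45 (a leukocyte marker) and without CD31 (an endothelial marker) were sorted, and 1 stranded poly(A) library was made per mouse. No group without radiotherapy or without a vector was analysed here, and the strain and age of the mice and the promoter in the vector are not given in the sources used here.

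Glycosaminoglycans are long sugar chains. Chondroitin, dermatan and heparan sulfate chains grow on the serines of core proteins from a shared linker that begins with xylose, and the xylosyltransferases Xylt1 and Xylt2 add that xylose. The next sugar decides between a chondroitin chain and a heparan chain, and sulfotransferases, epimerases and the extracellular Sulf enzymes then write the pattern that growth factors, chemokines and cytokines bind. Hyaluronan differs: it has no core protein and no sulfate and is extruded by the Has enzymes at the cell surface.

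The promoters of 4 members are shown because these genes had the largest differences in each direction among the members that have a promoter entry: Chsy1 and Chst12 were lower in AAV-iIL12 libraries, and Chpf2 and Fam20b were higher. Each sequence is from RefSeq on GRCm38.p6, runs 5′ to 3′ on the strand of the gene, and covers 250 bases before to 50 bases after the annotated start. Capitals mark a match to 1 of 2 motifs searched on both strands. The motifs were an IRF element (2 copies of GAAA with any 2 bases between them) and the E-box CACGTG, a palindrome that MITF, the lineage factor of melanocytes, can bind.
Chsy1 (chr7:66109242-66109541, plus strand): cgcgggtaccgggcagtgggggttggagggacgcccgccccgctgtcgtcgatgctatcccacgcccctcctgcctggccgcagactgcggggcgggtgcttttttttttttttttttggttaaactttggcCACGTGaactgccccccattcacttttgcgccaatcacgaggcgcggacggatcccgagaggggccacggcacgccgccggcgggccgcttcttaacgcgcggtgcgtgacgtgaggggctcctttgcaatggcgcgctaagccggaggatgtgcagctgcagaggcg
Chst12 (chr5:140505359-140505658, plus strand): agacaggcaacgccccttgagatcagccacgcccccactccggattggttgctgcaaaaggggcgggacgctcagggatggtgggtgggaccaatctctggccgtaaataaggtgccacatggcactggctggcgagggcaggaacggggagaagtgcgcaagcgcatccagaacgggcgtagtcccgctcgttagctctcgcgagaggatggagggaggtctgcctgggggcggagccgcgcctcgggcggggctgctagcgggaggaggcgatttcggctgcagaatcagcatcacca
Chpf2 (chr5:24586494-24586793, plus strand): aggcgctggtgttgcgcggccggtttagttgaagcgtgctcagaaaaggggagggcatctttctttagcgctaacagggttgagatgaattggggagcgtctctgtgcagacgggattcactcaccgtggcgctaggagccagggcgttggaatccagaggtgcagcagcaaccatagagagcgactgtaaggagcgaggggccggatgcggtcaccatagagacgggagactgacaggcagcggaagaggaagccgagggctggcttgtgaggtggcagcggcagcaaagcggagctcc
Fam20b (chr1:156718861-156719160, minus strand): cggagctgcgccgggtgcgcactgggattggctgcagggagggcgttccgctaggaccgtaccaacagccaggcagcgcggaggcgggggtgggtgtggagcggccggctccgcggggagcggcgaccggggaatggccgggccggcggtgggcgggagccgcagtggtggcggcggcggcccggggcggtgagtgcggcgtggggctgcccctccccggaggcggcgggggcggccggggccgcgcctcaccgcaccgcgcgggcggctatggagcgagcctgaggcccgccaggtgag

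Of these 4 windows only that of Chsy1 held a match, an E-box that begins 118 bases before the start. Chst12, Chpf2 and Fam20b held neither motif in this window. All 4 windows were richer in G and C than the median of all promoters (52.7%), with 65.3% in Chsy1, 65% in Chst12, 60.3% in Chpf2 and 80.3% in Fam20b. RefSeq gave 36 promoters for 30 of the 39 members. An E-box was in 5 of these 36 windows (Chsy1, Chst14, Ext2, Extl2 and Hs3st3a1), and an IRF element in 2 (Csgalnact2 and Extl1), and no window held both kinds. Among all 32851 promoters of the table the E-box was in 7.15% and the IRF element in 3.44%. A match is a run of letters and was not tested for binding.

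Total counts ranged from 16356653 to 19080587 per library. CPM is the fragment count scaled to a common library size, here after TMM adjustment, and FPKM is that CPM per kilobase of exon. Of the IL-12 subunits, Il12a had 259 to 272 counts in the AAV-iIL12 libraries and 0 in the AAV-iLuc libraries, and Il12b had 346 to 435 counts in the AAV-iIL12 libraries and 0 to 2 in the AAV-iLuc libraries. The summed level of 8 interferon-induced genes was 10012 to 12669 CPM in AAV-iIL12 libraries and 39.1 to 846 CPM in AAV-iLuc libraries, and the highest control value belonged to AAV-iLuc replicate 1, which stands apart. Without that library the members had the same 3 higher and 10 lower calls by number as with it. The 7 melanoma markers summed to 27845 to 28742 CPM in AAV-iIL12 libraries and 22839 to 25991 CPM in AAV-iLuc libraries (exact permutation test, two-sided, adjusted over 6 marker lists, p = 0.114). The smallest raw p that 3 against 4 can give is 0.0571. Of the 7, Pmel, Mlana and Mitf were called higher, beside 23.5% of all tested genes, and Dct, Tyrp1, Tyr and Sox10 were not called. Pmel averaged 8147 CPM in AAV-iIL12 libraries and 5469 CPM in AAV-iLuc libraries, the largest difference among the 7. The 4 keratinocyte markers summed to 4.63 to 7.77 CPM in AAV-iIL12 libraries and 1.85 to 2.65 CPM in AAV-iLuc libraries, with no overlap (exact permutation test, adjusted p = 0.114). Dsp carried nearly all of that sum and was called higher (log2 fold change 1.46, edgeR adjusted p = 2.85e-04), while Krt5 and Krt15 were at 0 in every library. The 5 endothelial markers summed to 15.2 to 26.7 CPM in AAV-iIL12 libraries and 19.4 to 24.9 CPM in AAV-iLuc libraries (exact permutation test, adjusted p = 0.743), nearly all from Vwf, with Cdh5 at 0. The part of these cell types in the values of the enzymes was not tested. Fibroblast markers summed to 57.7 to 149.8 CPM in AAV-iIL12 libraries and 86.6 to 298 CPM in AAV-iLuc libraries (exact permutation test, adjusted p = 0.686). Leukocyte markers summed to 22.3 to 30.0 CPM in AAV-iIL12 libraries and 14.8 to 29.8 CPM in AAV-iLuc libraries (exact permutation test, adjusted p = 0.343). Cd68 made most of each sum, with 15.7 to 21.2 CPM in AAV-iIL12 libraries and 13.9 to 16.8 CPM in AAV-iLuc libraries. In AAV-iLuc replicate 1, Ptprc, Lyz2 and Csf1r had 2.44, 6.50 and 2.96 CPM. The other AAV-iLuc libraries had at most 0.412, 0.979 and 0.603 CPM of these genes. None of the 4 tested leukocyte markers was called. In bulk libraries, fewer cells of a type and less RNA per cell cannot be told apart.

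Xylt1, which starts the linker of every chondroitin and heparan chain together with Xylt2, was 4.95-fold lower in AAV-iIL12 libraries, and no other tested enzyme differed as much in either direction. Of the 32 tested members, 3 were called higher in AAV-iIL12 libraries (Fam20b, Chpf2 and Extl3), 10 were called lower (Xylt1, B4galt7, B3galt6, Chsy1, Chpf, Chst12, Chst14, Ext1, Extl1 and Sulf2), and 19 were not called. A gene is called where edgeR's quasi-likelihood test gives a Benjamini-Hochberg adjusted p under 0.05 over all 13990 genes. These 13 calls are 40.6% of the tested members, beside 47.2% of all tested genes, with 23.5% of all genes called higher and 23.7% called lower. The CPM of the 2 groups did not overlap for 17 members, beside 52.5% of all tested genes. The members were selected with this contrast in view, so nothing is read from these shares.

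The median log2 fold change of the tested members was -0.16, beside -0.01 over all tested genes. Without Xylt1 the median was -0.15 and the values ran from -0.75 in Chsy1 to 0.70 in Chpf2. Xylt1 alone reached -2.31, which was place 36 from the lowest of all 13990 genes. Scaling by library size alone shifted the median of all genes to -0.10, and 36% of calls were then higher against 49.8% in the main analysis. Under that scaling 3 members were called higher and 14 lower, and with upper-quartile scaling 3 and 13 (38.5% of all calls higher, median of all genes -0.08).

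**Figure D1:**
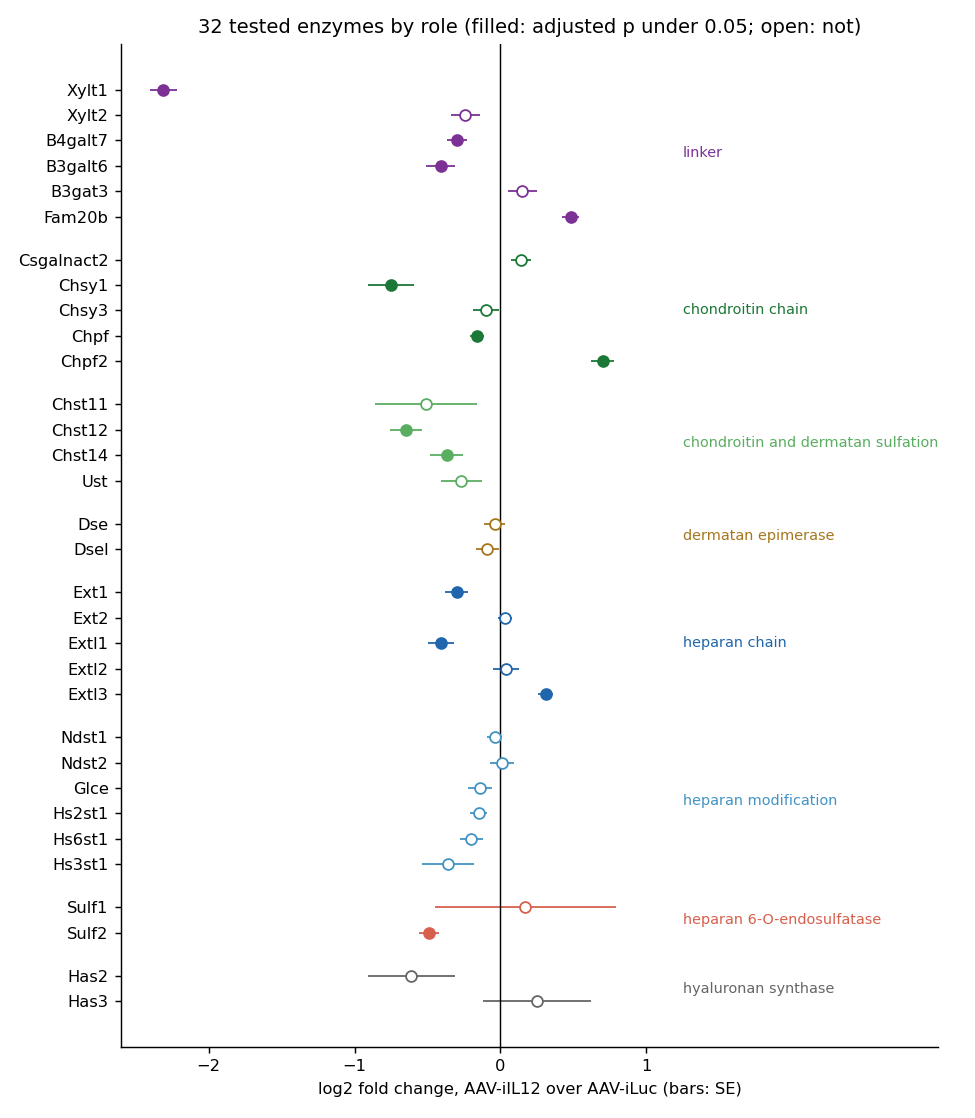
Log2 fold change (AAV-iIL12 over AAV-iLuc) of the 32 tested enzymes, grouped by role, with bars for the standard error and filled points for called genes. Xylt1 lies at -2.31 while every other tested enzyme lies between -0.75 and 0.70.

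The linker is assembled by 6 members, all of them tested, of which 1 was called higher and 3 were called lower. These calls are 66.7% of the 6, beside 47.2% of all tested genes. Xylt1 (ENSMUSG00000030657, GRCm39 chr7:116980214-117272803, plus strand) had 10.6, 12.5 and 10.7 CPM in AAV-iIL12 libraries, against 51.1, 57.4, 60.0 and 55.5 CPM in AAV-iLuc libraries. The highest AAV-iIL12 value was far below the lowest AAV-iLuc value, and the libraries of each group lay close together. The mean was 11.3 ± 1.09 CPM in AAV-iIL12 libraries (SD, n = 3) and 56.0 ± 3.76 CPM in AAV-iLuc libraries (SD, n = 4), a log2 fold change of -2.31 ± 0.09 (SE). The counts behind these values were 600 over the AAV-iIL12 libraries and 4111 over the AAV-iLuc libraries. Over all 17 alternatives tried, leaving out each library included, the value stayed between -2.40 and -2.26.

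Xylt2, the other xylosyltransferase (ENSMUSG00000020868, GRCm39 chr11:94554677-94568341, minus strand), had 24.1, 32.0 and 31.0 CPM in AAV-iIL12 libraries, against 36.0, 32.3, 33.6 and 35.8 CPM in AAV-iLuc libraries. The groups did not overlap, but AAV-iIL12 replicate 2 lay next to AAV-iLuc replicate 2, and AAV-iIL12 replicate 1 was the lowest. Its log2 fold change of -0.24 ± 0.10 was not called. It was called at -0.34 with library size alone, at -0.32 with upper-quartile scaling and at -0.32 without AAV-iIL12 replicate 2.

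Fam20b, the kinase that phosphorylates the linker xylose, had 184, 172 and 174 CPM in AAV-iIL12 libraries, against 133, 117, 134 and 119.8 CPM in AAV-iLuc libraries. Every AAV-iIL12 library was above every AAV-iLuc library, and the log2 fold change was 0.48 ± 0.06. The galactosyltransferases that follow the xylose were both lower: B4galt7 had 19.2 to 21.0 CPM in AAV-iIL12 libraries and 23.0 to 25.8 CPM in AAV-iLuc libraries (log2 fold change -0.30), and B3galt6 had 7.31 to 7.93 CPM in AAV-iIL12 libraries and 9.72 to 10.7 CPM in AAV-iLuc libraries (-0.41). B3gat3, which closes the linker with glucuronic acid, averaged 21.8 ± 0.705 CPM in AAV-iIL12 libraries and 19.7 ± 2.22 CPM in AAV-iLuc libraries, and was not called (0.15 ± 0.10). Summed per length, the 6 linker enzymes came to 46.3 ± 0.942 FPKM in AAV-iIL12 libraries and 48.1 ± 1.55 FPKM in AAV-iLuc libraries. Without Xylt1 the sums were 45.1 FPKM in AAV-iIL12 libraries and 42.3 FPKM in AAV-iLuc libraries. The sum was thus higher in AAV-iIL12 libraries without Xylt1 and lower with it. Fam20b averaged 20.1 FPKM in AAV-iIL12 libraries and 14.4 FPKM in AAV-iLuc libraries, and B3gat3 8.41 and 7.61 FPKM. The other linker enzymes had lower means in AAV-iIL12 libraries: Xylt2 (7.30 and 8.65 FPKM), B4galt7 (6.90 and 8.49 FPKM) and B3galt6 (2.36 and 3.14 FPKM).

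**Figure D2:**
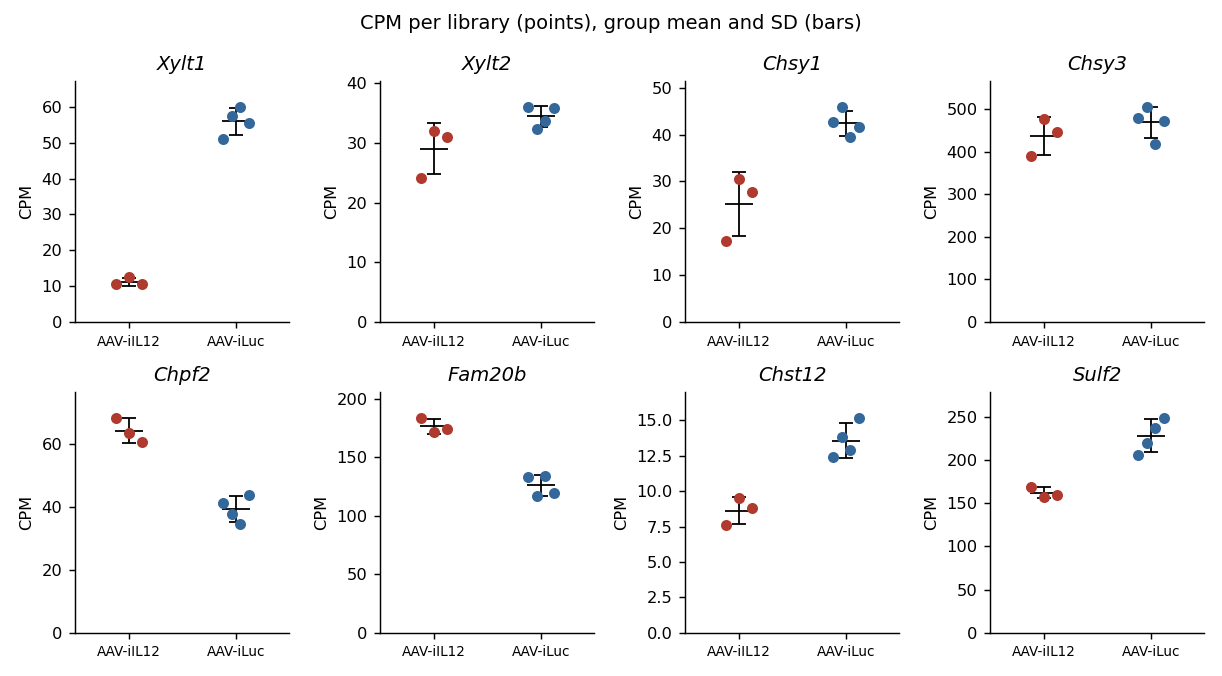
CPM of 8 enzymes in each library (points), with the group mean and SD (lines), AAV-iIL12 left and AAV-iLuc right. Xylt1 has 10.6 to 12.5 CPM in AAV-iIL12 libraries and 51.1 to 60.0 CPM in AAV-iLuc libraries, Chpf2 and Fam20b are higher in every AAV-iIL12 library, and Chsy3 overlaps between the groups.

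Chondroitin chains are started by Csgalnact1 and Csgalnact2 and lengthened by complexes of Chsy1, Chsy3, Chpf and Chpf2. Of the 5 that were tested, 1 was called higher, 2 were called lower and 2 were not called. That is 60% called, beside 47.2% of all tested genes, and the median log2 fold change was -0.10. Chsy3, a chondroitin synthase, had the highest level per length of all members, and it had 389, 476 and 446 CPM in AAV-iIL12 libraries, against 478, 505, 419 and 472 CPM in AAV-iLuc libraries. The groups overlapped, and the log2 fold change of -0.10 ± 0.09 was not called.

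Its partner synthase Chsy1 had 17.4, 30.5 and 27.7 CPM in AAV-iIL12 libraries, against 42.7, 45.9, 39.4 and 41.7 CPM in AAV-iLuc libraries. All AAV-iIL12 libraries were below all AAV-iLuc libraries, and replicate 1 was the lowest by a wide margin. The log2 fold change was -0.75 ± 0.16, and it ranged from -0.90 to -0.54 as each library was left out. Of the 4 promoters shown, that of Chsy1 is the one with an E-box. Of the other members with an E-box, Chst14 was called lower (-0.37), Ext2 (0.03) and Extl2 (0.04) were not called, and Hs3st3a1 was not tested. A part of the E-box in these values was not tested.

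The polymerising factors Chpf and Chpf2 differed in opposite directions. Chpf2 had 68.5, 63.7 and 60.7 CPM in AAV-iIL12 libraries, against 41.3, 37.8, 34.6 and 43.9 CPM in AAV-iLuc libraries. The groups did not overlap, and its log2 fold change of 0.70 ± 0.08 was the largest rise among the tested members. Chpf averaged 118 ± 4.18 CPM in AAV-iIL12 libraries and 132 ± 2.96 CPM in AAV-iLuc libraries, a small difference of -0.16 ± 0.05 on the log2 scale. The call of Chpf was lost when AAV-iIL12 replicate 1 (-0.15) or replicate 3 (-0.14) was left out, and with no low-count filter (-0.16). Csgalnact2, which starts the chain, averaged 30.1 ± 1.67 CPM in AAV-iIL12 libraries and 27.4 ± 1.61 CPM in AAV-iLuc libraries, and was not called (0.14 ± 0.07).

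The sulfotransferases of chondroitin and dermatan had the lowest median of the role groups, -0.44 on the log2 scale over 4 tested members. Of these 4, 2 were called lower (50% called, beside 47.2% of all tested genes). Chst12, a chondroitin 4-O-sulfotransferase, had 7.62, 9.50 and 8.79 CPM in AAV-iIL12 libraries, against 12.4, 13.8, 12.9 and 15.2 CPM in AAV-iLuc libraries. The groups did not overlap, with a log2 fold change of -0.65 ± 0.11. Chst14, the 4-O-sulfotransferase of dermatan, had 9.81, 11.7 and 12.6 CPM in AAV-iIL12 libraries, against 14.4, 13.7, 15.5 and 15.4 CPM in AAV-iLuc libraries. These groups also did not overlap (-0.37 ± 0.11), and the call was lost without AAV-iIL12 replicate 1, at -0.27.

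Chst11, another chondroitin 4-O-sulfotransferase, had only 40 counts over the AAV-iIL12 libraries and 79 over the AAV-iLuc libraries, and its log2 fold change of -0.51 ± 0.35 was not called. Ust, which sulfates the uronic acid at the 2-O position, was at -0.27 ± 0.14 and not called, and without AAV-iLuc replicate 2 it was called at -0.37. Summed per length, the 7 sulfotransferases of this group came to 11.4 ± 0.839 FPKM in AAV-iIL12 libraries and 15.6 ± 0.965 FPKM in AAV-iLuc libraries, a ratio of 0.73. The epimerases Dse and Dsel, which turn glucuronic into iduronic acid and so make dermatan from chondroitin, follow in the same branch. Dse had 27.5, 31.3 and 29.2 CPM in AAV-iIL12 libraries, against 30.1, 30.3, 30.6 and 29.5 CPM in AAV-iLuc libraries. The groups overlapped, with AAV-iIL12 libraries at both ends, and neither Dse (-0.04 ± 0.07) nor Dsel (-0.09 ± 0.08) was called.

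Heparan chains are begun by Extl3 and polymerised by the complex of Ext1 and Ext2. Of the 5 members of this step, 1 was called higher and 2 were called lower, with a median log2 fold change of 0.03. The share called was 60%, beside 47.2% of all tested genes. Extl3 had 114, 106 and 107 CPM in AAV-iIL12 libraries, against 90.3, 84.4, 89.0 and 87.8 CPM in AAV-iLuc libraries. Its groups did not overlap, and the log2 fold change was 0.31 ± 0.05. Of the polymerase subunits, Ext1 averaged 28.9 ± 1.84 CPM in AAV-iIL12 libraries and 35.6 ± 2.88 CPM in AAV-iLuc libraries (-0.30 ± 0.08). Ext2 averaged 101 ± 6.55 CPM in AAV-iIL12 libraries and 99.3 ± 2.45 CPM in AAV-iLuc libraries (0.03 ± 0.05) and was not called. Extl1, a related N-acetylglucosaminyltransferase, averaged 33.7 ± 3.74 CPM in AAV-iIL12 libraries and 45.1 ± 3.37 CPM in AAV-iLuc libraries (-0.41 ± 0.09). Extl2, which adds a sugar to the phosphorylated linker, was not called (0.04 ± 0.09).

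Among the enzymes that modify the heparan chain, 0 of 6 tested members were called in either direction by edgeR, DESeq2 or limma-voom. Their log2 fold changes ran from -0.36 to 0.01. Over all tested genes, edgeR called 47.2%. At an unadjusted p under 0.05, edgeR gave 2 lower and 0 higher. Scaling by library size alone called Glce (-0.23), Hs2st1 (-0.24) and Hs6st1 (-0.29) lower, and upper-quartile scaling called Hs2st1 (-0.22) and Hs6st1 (-0.27) lower. Hs2st1 (-0.20) was called without AAV-iIL12 replicate 2, and Hs6st1 (-0.24) without AAV-iLuc replicate 4. Ndst1, the main N-deacetylase and N-sulfotransferase here by level, had 149, 159.9 and 162 CPM in AAV-iIL12 libraries, against 166, 159.7, 158 and 163 CPM in AAV-iLuc libraries. The groups overlapped, at -0.04 ± 0.05 on the log2 scale. Ndst2 was at 0.01 ± 0.08, the C5-epimerase Glce at -0.14 ± 0.08, the 2-O-sulfotransferase Hs2st1 at -0.15 ± 0.06 and the 6-O-sulfotransferase Hs6st1 at -0.20 ± 0.08. Glce, Hs2st1 and Hs6st1 were lower in every AAV-iIL12 library than in every AAV-iLuc library although none was called. Hs3st1, which makes the 3-O-sulfated site bound by antithrombin, was at -0.36 ± 0.18, with overlapping groups and replicate 1 of each group its lowest library. Hs3st1 was called without AAV-iIL12 replicate 2 (-0.56) and with no low-count filter (-0.35).

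The Sulf enzymes act outside the cell, where they remove 6-O-sulfates from heparan chains. Sulf2 had 169, 157 and 159.9 CPM in AAV-iIL12 libraries, against 206, 219, 237 and 249 CPM in AAV-iLuc libraries. All AAV-iIL12 libraries were below all AAV-iLuc libraries, with a log2 fold change of -0.49 ± 0.07. Sulf1 was nearly absent, with 2.07, 1.52 and 0.549 CPM in AAV-iIL12 libraries and 0.676, 0.329, 2.68 and 1.24 CPM in AAV-iLuc libraries. The groups overlapped, and within each group the highest Sulf1 value was in the library with the most fibroblast marker RNA. That marker sum was 149.8, 104 and 57.7 CPM in AAV-iIL12 libraries and 86.9, 86.6, 298 and 149 CPM in AAV-iLuc libraries. Its part in the Sulf1 values was not tested.

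The hyaluronan synthases were at the low end of the members. Has2 had 1.22, 1.36 and 1.15 CPM in AAV-iIL12 libraries, against 1.61, 2.36, 2.50 and 1.19 CPM in AAV-iLuc libraries. The groups overlapped through AAV-iLuc replicate 4. The log2 fold change of Has2 was -0.61 ± 0.30 and not called, and without AAV-iLuc replicate 4 it was -0.78 and called. Has3 was at 0.25 ± 0.37, from 36 counts over the AAV-iIL12 libraries and 42 over the AAV-iLuc libraries.

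Levels of different genes were compared per length, as FPKM from the scaled CPM and the exon length in the count files. Chsy3 led with a mean of 62.9 FPKM over all libraries, followed by Sulf2 at 34.0, Chpf at 32.6, Ndst1 at 19.3, Fam20b at 16.9 and Extl3 at 16.0 FPKM. Chsy3 was higher than 95.3% of all tested genes. Sulf2 and Chpf changed places between the groups: Sulf2 averaged 27.6 FPKM in AAV-iIL12 libraries and 38.8 FPKM in AAV-iLuc libraries, and Chpf averaged 30.5 FPKM in AAV-iIL12 libraries and 34.2 FPKM in AAV-iLuc libraries. Xylt1 was in place 28 of the 39 members in AAV-iIL12 libraries, with 1.17 ± 0.113 FPKM, and in place 19 in AAV-iLuc libraries, with 5.80 ± 0.389 FPKM. Xylt2 averaged 7.30 FPKM in AAV-iIL12 libraries and 8.65 FPKM in AAV-iLuc libraries.

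In the middle of the order, neighbours such as Extl1 (9.28), Extl2 (9.08) and Chpf2 (8.96 FPKM over all libraries) differed by less than the SD of Extl1 among AAV-iIL12 libraries (0.864 FPKM). Summed over all members, the level per length was 315 ± 14.0 FPKM in AAV-iIL12 libraries and 345 ± 3.71 FPKM in AAV-iLuc libraries, and without Chsy3 it was 254 ± 7.88 FPKM in AAV-iIL12 libraries and 279.8 ± 5.31 FPKM in AAV-iLuc libraries. By role, the heparan chain enzymes summed to 52.4 ± 1.10 FPKM in AAV-iIL12 libraries and 51.8 ± 2.21 FPKM in AAV-iLuc libraries. The heparan modification enzymes summed to 53.5 ± 4.15 FPKM in AAV-iIL12 libraries and 59.2 ± 1.91 FPKM in AAV-iLuc libraries. The Sulf enzymes summed to 27.7 ± 1.09 FPKM in AAV-iIL12 libraries and 38.9 ± 3.31 FPKM in AAV-iLuc libraries.

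**Figure D3:**
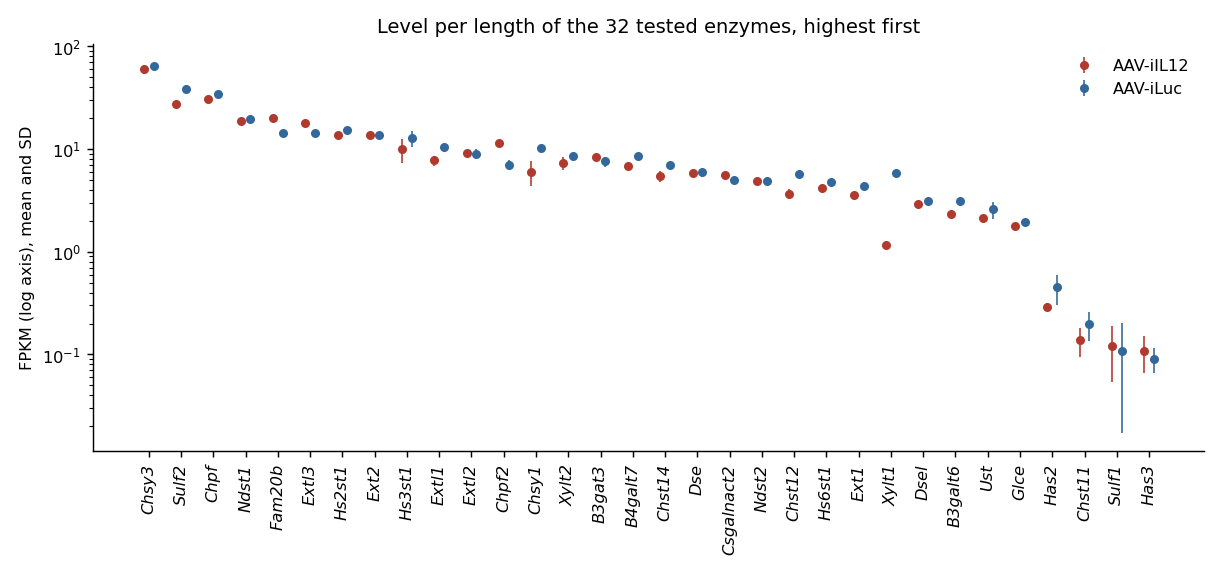
Level per length (FPKM, log axis) of the 32 tested enzymes in AAV-iIL12 and AAV-iLuc libraries, as mean and SD, ordered by the mean over all libraries. Chsy3 leads at 62.9 FPKM, Xylt1 shows the widest gap between the groups (1.17 and 5.80 FPKM), and Has2, Chst11, Sulf1 and Has3 lie below 1 FPKM.

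Several steps are served by 2 isozymes, and their balance was given as the share of the first gene in the summed level per length of 13 pairs. Both genes were tested in 9 pairs, and in 4 of these 9 the shares of the groups did not overlap. For single genes, the CPM of the groups did not overlap in 52.5% of all tested genes. Shares of other gene pairs were not computed, so nothing is read from this count. Xylt1 made up 15.3%, 13.9% and 12.5% of the xylosyltransferase level in AAV-iIL12 libraries, against 36.9%, 42.2%, 42.4% and 39% in AAV-iLuc libraries. Xylt2 was therefore the more abundant of the pair in every library of both groups, with a mean share of 86.1% in AAV-iIL12 libraries and 59.9% in AAV-iLuc libraries. In raw counts, with no length correction, the Xylt1 share averaged 28.1% in AAV-iIL12 libraries and 61.9% in AAV-iLuc libraries, so the order of the pair in AAV-iLuc libraries depends on the length correction.

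Chsy1 supplied 8.97 ± 1.54% of the Chsy1 and Chsy3 level in AAV-iIL12 libraries and 13.6 ± 0.322% in AAV-iLuc libraries. Chpf supplied 72.6 ± 1.43% of the Chpf and Chpf2 level in AAV-iIL12 libraries and 82.9 ± 1.72% in AAV-iLuc libraries. Ext1 supplied 20.6 ± 0.476% of the Ext1 and Ext2 level in AAV-iIL12 libraries and 24.5 ± 1.51% in AAV-iLuc libraries. In these pairs the groups did not overlap. In each of them, as in the xylosyltransferases, the gene with the lower share in AAV-iIL12 libraries was itself called lower. Shares and calls come from the same counts, so this is not a separate result. The call of Chpf, at a log2 fold change of -0.16, was lost under several alternatives, and Chpf2 was called higher at 0.70. The other pairs kept overlapping shares: Dse made 66.7 ± 0.613% in AAV-iIL12 libraries and 66 ± 0.989% in AAV-iLuc libraries, and Ndst1 made 79.4 ± 1.80% in AAV-iIL12 libraries and 80.1 ± 1.04% in AAV-iLuc libraries. Sulf2 held 99.6% of the Sulf level in AAV-iIL12 libraries and 99.7% in AAV-iLuc libraries. Has2 held 73.4 ± 8.62% of the Has level in AAV-iIL12 libraries and 82.7 ± 4.50% in AAV-iLuc libraries.

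**Figure D4:**
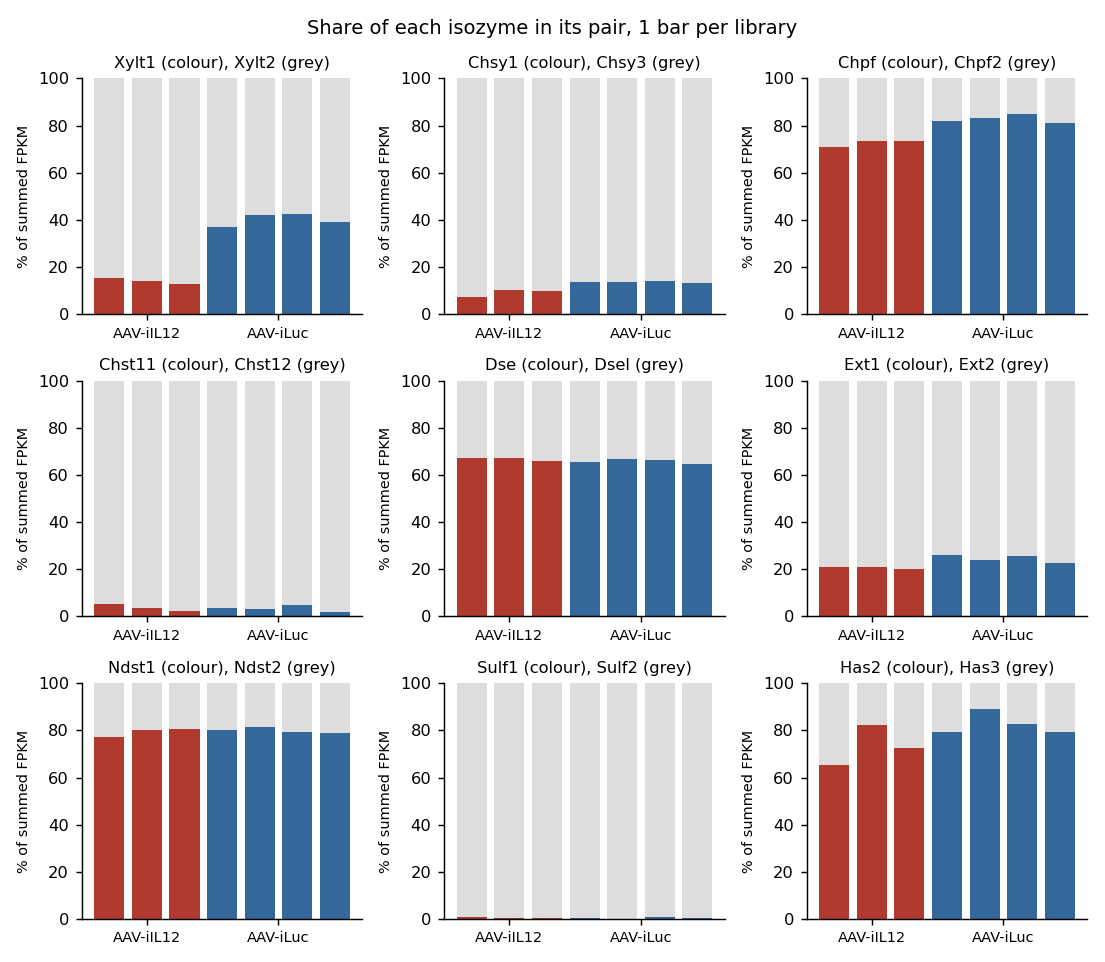
Share (%) of the first isozyme (colour) and the second (grey) in the summed FPKM of 9 pairs, 1 bar per library, with the 3 AAV-iIL12 libraries left of the 4 AAV-iLuc libraries. The Xylt1 share is 12.5% to 15.3% in AAV-iIL12 libraries and 36.9% to 42.4% in AAV-iLuc libraries, while the Dse and Ndst1 shares overlap between the groups.

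The 7 members not tested were Csgalnact1, the chondroitin sulfotransferases Chst3, Chst7 and Chst15, and the heparan sulfotransferases Hs6st2, Hs3st3a1 and Hs3st3b1. Csgalnact1 had 14 counts over the AAV-iIL12 libraries and 33 over the AAV-iLuc libraries, and Chst15 had 11 over the AAV-iIL12 libraries and 9 over the AAV-iLuc libraries. Chst3, Chst7 and Hs6st2 each had at most 5 counts over the AAV-iIL12 libraries and at most 6 over the AAV-iLuc libraries. Hs3st3b1 had 4 counts over the AAV-iIL12 libraries and 0 over the AAV-iLuc libraries. Hs3st3a1 had 0 counts in every library, which allows up to 0.0566 CPM over the AAV-iIL12 libraries and 0.0407 CPM over the AAV-iLuc libraries (3 counts over the group, counting error only). Hs3st3a1 and Hs3st3b1 share a near-identical catalytic part, and reads that fit both may be missing from their counts. Differences in these 7 genes were not detectable at this depth.

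Beyond the members, 74 genes of the same pathway were counted in 5 lists. Of the 62 tested, 11 were called higher and 21 lower, 51.6% in all, beside 47.2% of all tested genes. The other isozymes and Pxylp1 made a list with 5 tested genes, of which 2 were called lower (40%, beside 47.2% of all tested genes called). Pxylp1, the phosphatase that removes the phosphate Fam20b adds to the linker, averaged 9.54 ± 1.03 CPM in AAV-iIL12 libraries and 15.4 ± 1.20 CPM in AAV-iLuc libraries (log2 fold change -0.69, edgeR adjusted p = 5.15e-04). The kinase and the phosphatase of the linker xylose thus differed in opposite directions. Ndst3 was called lower at -0.61 (edgeR adjusted p = 0.0422), on 115 counts in AAV-iIL12 libraries and 246 in AAV-iLuc libraries, and the call was lost without AAV-iIL12 replicate 2 or 3 and without AAV-iLuc replicate 1, 3 or 4 (adjusted p 0.0669 to 0.147).

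The enzymes and transporters that supply sugar nucleotides and sulfate numbered 17, of which 2 were called higher and 7 lower. These calls are 52.9% of the list, beside 47.2% of all tested genes. The median log2 fold change was -0.18, beside -0.01 over all tested genes. Both synthases of the sulfate donor PAPS were called lower. Papss1 averaged 67.6 ± 10.7 CPM in AAV-iIL12 libraries and 94.8 ± 7.19 CPM in AAV-iLuc libraries (-0.48, edgeR adjusted p = 0.00316). Its scarce isozyme Papss2 had 0.978 to 1.04 CPM in AAV-iIL12 libraries and 1.70 to 2.91 CPM in AAV-iLuc libraries (-1.17, edgeR adjusted p = 0.00586). Bpnt2, the Golgi phosphatase that clears the spent donor, averaged 208 ± 19.3 CPM in AAV-iIL12 libraries and 274 ± 9.50 CPM in AAV-iLuc libraries (-0.40, adjusted p = 0.0011). Uxs1, which makes the UDP-xylose that Xylt1 and Xylt2 use, averaged 40.9 ± 1.34 CPM in AAV-iIL12 libraries and 50.6 ± 3.06 CPM in AAV-iLuc libraries (-0.31, adjusted p = 0.00297). Uap1, which makes UDP-N-acetylglucosamine, rose by 0.40 (adjusted p = 0.00241). Ugp2, the source of UDP-glucose and the most abundant of the list at 392 FPKM, was not called (-0.12).

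Core proteins carry the chains, and 41.7% of the tested heparan core proteins and 44.4% of the tested chondroitin core proteins were called, beside 47.2% of all tested genes. Of 12 tested heparan core proteins, Agrn (agrin) was the only gene called higher (0.24, edgeR adjusted p = 0.0104), a call lost with library-size scaling (0.15) and upper-quartile scaling (0.16), and 4 were called lower. Syndecan-1 (Sdc1) averaged 25.1 ± 1.19 CPM in AAV-iIL12 libraries and 48.7 ± 4.41 CPM in AAV-iLuc libraries (-0.95, adjusted p = 1.44e-05). Perlecan (Hspg2) averaged 189 ± 30.9 CPM in AAV-iIL12 libraries and 350.3 ± 11.0 CPM in AAV-iLuc libraries (-0.89, adjusted p = 6.80e-05). Glypican-6 (Gpc6) was at -0.97 (adjusted p = 0.00145) and syndecan-3 (Sdc3) at -0.45 (adjusted p = 0.0309). The Sdc3 call was lost without AAV-iIL12 replicate 2 or 3 and without AAV-iLuc replicate 1 or 2 (-0.44 to -0.29). Glypican-1 (Gpc1), the most abundant of the list, was not called (-0.08). The median of the list was -0.18.

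Among 9 tested chondroitin core proteins, 1 was called higher and 3 lower, with a median of 0.16. Brevican (Bcan) had 26 counts over the AAV-iIL12 libraries and 218 over the AAV-iLuc libraries (-2.57, edgeR adjusted p = 4.45e-04), and Cspg5 went the other way at 1.42 (adjusted p = 7.75e-04). Cspg4, a proteoglycan of melanoma cells and pericytes, averaged 4.04 ± 0.815 CPM in AAV-iIL12 libraries and 8.70 ± 0.537 CPM in AAV-iLuc libraries (-1.10, adjusted p = 2.11e-04). The 5 pericyte markers summed to 8.41 to 10.8 CPM in AAV-iIL12 libraries and 11.6 to 13.7 CPM in AAV-iLuc libraries (exact permutation test, adjusted p = 0.114). Nearly all of that sum came from the 2 tested markers, Notch3, called lower (-0.45, edgeR adjusted p = 0.0357), and Des, not called (-0.45). Rgs5, Kcnj8 and Abcc9 were counted too rarely to test. The part of these markers in the Cspg4 difference was not tested. Cd44, the hyaluronan receptor and the most abundant of the list, averaged 728 ± 27.1 CPM in AAV-iIL12 libraries and 927 ± 33.4 CPM in AAV-iLuc libraries (-0.35, adjusted p = 5.25e-04).

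Of 19 tested enzymes that break the chains down, 7 were called higher and 5 lower (63.2% called, beside 47.2% of all tested genes, of which 23.5% were higher and 23.7% lower). Their median was 0.19, and with library-size or upper-quartile scaling the counts were 5 and 5. Heparanase (Hpse), which cuts heparan sulfate outside the cell and in lysosomes, had 1117, 1014 and 965 CPM in AAV-iIL12 libraries, against 486, 502, 333 and 356 CPM in AAV-iLuc libraries. Every AAV-iIL12 library was far above every AAV-iLuc library, with a log2 fold change of 1.30 ± 0.14 (edgeR adjusted p = 5.33e-05), and the level per length was 294 FPKM in AAV-iIL12 libraries and 119 FPKM in AAV-iLuc libraries. The lysosomal enzymes of heparan breakdown were split: Idua (0.63, edgeR adjusted p = 1.97e-04) and Naglu (0.37, adjusted p = 0.00111) were higher, while Hgsnat (-0.66, adjusted p = 2.99e-05), Gusb (-0.46, adjusted p = 5.36e-04) and Sgsh (-0.34, adjusted p = 0.00518) were lower. Hyal2, a hyaluronidase, was lower as well (-0.47, adjusted p = 0.00289).

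**Figure D5:**
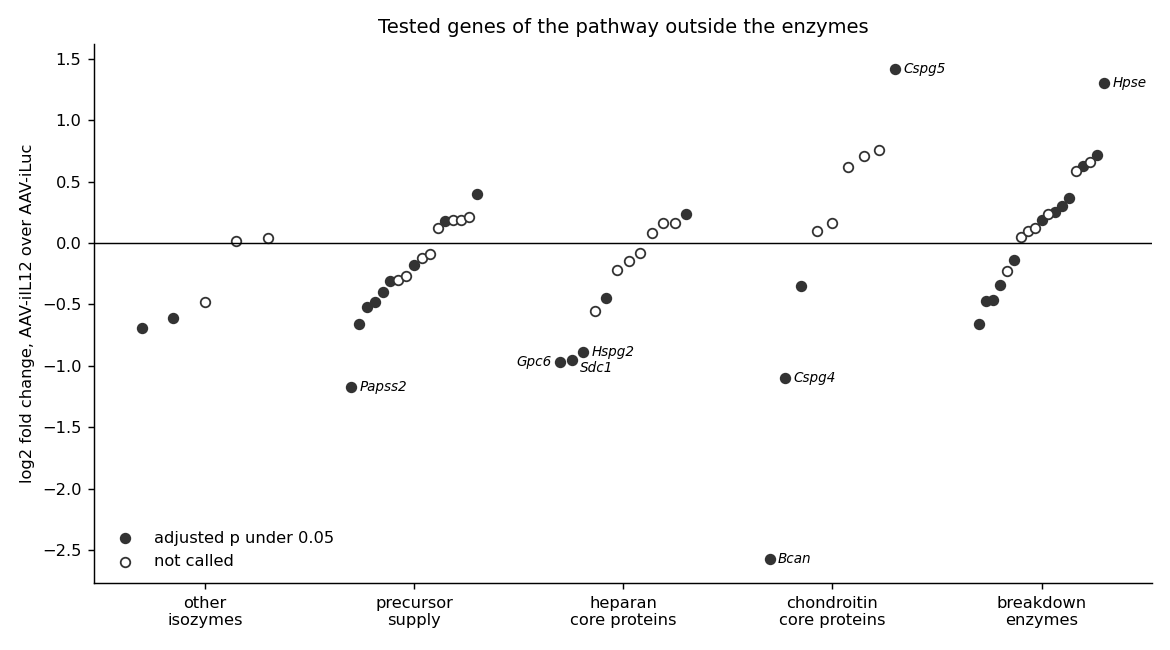
Log2 fold change (AAV-iIL12 over AAV-iLuc) of the 62 tested pathway genes outside the enzyme list, 1 point per gene, filled where called, in 5 lists. Hpse lies at 1.30 and Cspg5 at 1.42, Bcan lies at -2.57, and the sulfate and sugar supply genes lie between -1.17 and 0.40.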

How the data were processed

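RNA was sequenced from CD45- CD31- cells of 7 mice (3 AAV-iIL12, 4 AAV-iLuc), with 1 library per mouse. Per the file headers, the authors deposited raw counts per gene, made with featureCounts 1.6.0 over exons with paired-end and reverse-stranded settings on GENCODE vM32, and no option for multi-mapping reads was set. The build GRCm39 and the tools STAR 2.7.9a and FastQC 0.11.8 are named in the submitters' processing notes. Symbols came from GENCODE vM21 by gene identifier (52029 matched, holding 99.4% of counts), Bpnt2 through its synonym Impad1.

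Counts were compared with edgeR 4.0.16 (quasi-likelihood F test, TMM, filterByExpr, Benjamini-Hochberg at 0.05 over 13990 genes) in R 4.3.3. CPM is scaled by TMM, and FPKM is that CPM per kilobase of exon. Errors are SD over n = 3 and n = 4 libraries unless marked SE, which comes from the F statistic. Marker sums were compared by exact permutation tests over 35 arrangements. Isozyme shares and role sums have no test. Alternatives were other scalings, filters and thresholds, DESeq2 1.42.0, limma-voom (limma 3.58.1), a replicate block and leaving out each library. No 2 libraries were duplicates.

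The members and all lists were chosen with earlier results of these data known. Values in every library were planned for Xylt1, Xylt2, members called with an absolute log2 fold change of at least 0.8 and the most abundant member of each role, and names in each pathway list for the 3 smallest p-values and the highest level. Chsy1, Chpf2, Chst12, Sulf1 and the other names were chosen after their values were seen. Some genes and motifs that these rules take in are not reported here.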

Additional observations from a re-analysis of the deposited data

Results flagged for a closer look

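Among 77 groups of 4 values checked, 3 held a library far from the others, and chance flags about 1 in 20 such groups. B3galt6 was at 10.7 CPM in AAV-iLuc replicate 2, against 9.72 to 9.79 CPM in the other AAV-iLuc libraries. Hs6st2 was at 0 CPM in AAV-iLuc replicate 2, against 0.103 to 0.119 CPM in the others, which is a difference of single counts. Slc35a3, the Golgi transporter of UDP-N-acetylglucosamine, was at 82.0 CPM in AAV-iLuc replicate 4, against 76.9 to 77.4 CPM in the others.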

How the results depend on the processing

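Xylt1 was called lower under all 17 alternatives. With library size alone and with upper-quartile scaling, the median log2 fold change of members was -0.25 and -0.23, precursor supply had 1 higher call under each, and heparan core proteins had 0. With no low-count filter, chondroitin core proteins had 3 higher calls. With DESeq2 and at a threshold of 0.01, other isozymes had 1 lower call. At 0.01 the calls of Chpf, Chst14 and Ext1 were lost, and precursor supply had 1 higher and 4 lower calls and heparan core proteins 0 higher. With an absolute log2 fold change of at least 1, 817 genes were higher and 654 lower, members had 0 and 1, other isozymes 0 lower, precursor supply 0 and 1, heparan core proteins 0 and 0, and breakdown enzymes 1 and 0. The Xylt1 share in raw counts was 28.1% in AAV-iIL12 and 61.9% in AAV-iLuc libraries.

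Leaving out 1 library at a time gave 2898 to 3152 genes higher and 2774 to 3157 lower, 3 members higher and 8 to 13 lower, a member median of -0.20 to -0.15, 1 to 2 other isozymes lower, 1 to 3 precursor genes higher, and 1 to 2 chondroitin core proteins higher. Without AAV-iIL12 replicate 1, Dse (0.01) and Ugp2 (0.02, adjusted p = 0.903 with edgeR) changed sign, and neither was called in either fit. Over all single libraries left out, Dse ran from -0.08 to 0.01 and Ugp2 from -0.20 to 0.02. Other isozymes had 1 lower call with replicate 3 of AAV-iIL12 left out, and likewise with AAV-iLuc replicate 1, 3 or 4 left out. Precursor supply had 1 higher call when replicate 3 of AAV-iIL12 or replicate 4 of AAV-iLuc was dropped. Chondroitin core proteins had 2 higher calls when replicate 3 of AAV-iIL12 or replicate 1 of AAV-iLuc was dropped. The causes were not tested.

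Deviations of same-numbered libraries correlated at 0.0876, 0.0337 and -0.0485, and those of differently numbered libraries at -0.108 to 0.0732. Whether the replicate number marks a pairing cannot be settled from such weak correlations. With the replicate block, 2832 genes were called higher and 2828 lower, members 3 and 10 (Chpf dropped out at -0.17 and Hs3st1 came in at -0.39), other isozymes 1 lower and precursor supply 1 higher. Depth limits the 7 untested members and Chst11, Sulf1 and Has3.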
